A study of Mus musculus with 20 samples.

Results

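The ETS family is a set of transcription factors that share a DNA-binding domain, and 10 of its members were followed here across sorted blood cell populations of the mouse bone marrow: Ets1, Ets2, Erg, Fli1, Etv6, Elf1, Elf4, Elk4, Spi1 and Spib. The members were taken by gene symbol. All 23 probe sets annotated to these 10 symbols were used, out of 45037 probe sets and 18193 named genes measured in the series. Levels are given as log2 of the RMA intensity, and a difference of 1 on this scale is a doubling of intensity. The tested differences are those between group means in a limma model over the 20 arrays. A probe set was called when its p-value, adjusted by the Benjamini-Hochberg method over the 45037 probe sets, was below 0.05.

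The study asked which genes need Ets1 in natural killer (NK) cells. Mature NK cells came from mice of strain 129 with the genotype Rag2-- Ets1-- (Ets1-deficient NK cells, n = 2 arrays) or Rag2-- Ets1++ (Ets1-present NK cells, n = 2). Both NK groups therefore lack Rag2, a gene required for antigen receptor rearrangement. The remaining populations came from wild-type C57bl/6 mice. There were 2 arrays each of HSC (the stem cells of the blood), of the multipotent progenitors MPP, of the LMPP, which are multipotent but primed for lymphoid fates, of pro-B cells and of CD4 T cells. The committed progenitors had 3 arrays each: CLP for the lymphoid branch and GMP for granulocytes and monocytes. All mice were 8 to 14 weeks old, and the tissue was bone marrow throughout. Strain and Rag2 genotype cannot be told apart from cell type when NK cells are set against any other population. The labels do not say that replicate arrays came from separate mice, and a p-value here covers no more than the spread among the arrays at hand, which can be technical.

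ETS factors recognise a short core of GGAA in DNA and act together with partner factors. In blood formation ERG and FLI1 are known for maintaining stem cells and megakaryocytes, ETV6 is a repressor needed for stem cell persistence in the marrow, PU.1 (the product of Spi1) drives myeloid and early lymphoid development, and SPI-B is its close relative in B cells and plasmacytoid dendritic cells. ETS1 is known for its roles in T, B and NK cells, and ELF1 and ELF4 for roles in lymphoid cells. ELK4 acts with serum response factor, and ETS2 is a target of growth factor signalling.

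Sorted populations were checked against their defining genes. Of 6 measured pro-B genes 5 were highest in pro-B cells and Rag1 in CLP. Their mean log2 level was 9.28 to 9.59 in pro-B arrays, 8.01 to 8.36 in CLP arrays and 3.46 to 3.98 elsewhere. CLP and pro-B arrays overlapped for Ebf1 (9.93 to 10.85 and 9.79 to 11.41) and Pax5 (4.57 to 5.26 and 4.91 to 5.36). They were separate for the other pro-B genes. The part of this shared expression in the differences between pro-B cells and CLP was not tested. The 3 measured CD4 T cell genes were highest in CD4 T cells, and 5 of 6 GMP genes in GMP, with Lyz2 highest in HSC. Of 5 measured NK genes, 2 were highest in Ets1-deficient and 3 in Ets1-present NK cells. Other exceptions were Flt3 (highest in CLP) and Kit (highest in HSC) among the MPP and LMPP genes, Slamf1, which was highest in CD4 T cells and not in HSC, and Il7r, highest in CD4 T cells and not in CLP. All 4 neutrophil genes examined (S100a8, S100a9, Ltf and Ngp) were highest in NK arrays, with a mean log2 level of 8.96 to 9.82 in Ets1-deficient and 10.9 to 10.94 in Ets1-present NK arrays, against 3.51 to 5.03 in all other groups but GMP, which had 7.88 to 8.25. RNA quality also moved with group. The actin 3' signal exceeded the 5' signal by 6.44 to 6.68 log2 units in GMP arrays. The excess was 5.2 and 5.27 in CLP arrays 1 and 3, against 3.26 in CLP array 2 and 0.97 to 4.07 in the other groups. The 4.07 was that of Ets1-deficient NK array 2, and the remaining NK arrays had 2.76 to 2.9. CLP arrays 1 and 3 also had housekeeping gene means of 9.45 and 9.36 on the log2 scale, against 10.5 in array 2, so CLP results are also given with array 2 as the only CLP array.

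Across the 9 groups 18 of the 23 member probe sets changed by the moderated F test, where 52.0% of all probe sets were called. They covered all 10 genes. The 5 that were not called were 1 of 3 Ets2, 1 of 2 Elf4 and 3 of 4 Elk4 probe sets. The distance between the lowest and highest group mean had a median of 2.51 log2 units over the 23 members and of 1.04 over all probe sets, and it reached 2 or more in 14 of 23 members and in 23.7% of all probe sets. On 13 member probe sets every group mean lay above 3.86, the median of all values, and on 22 at least 1 group mean did. The exception was the Ets2 probe set 1437809_x_at, which stayed between 2.37 and 2.87. Intensities of 1 probe set cannot be set against those of another, so the order described below is always that of groups on 1 probe set.

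**Figure D1:**
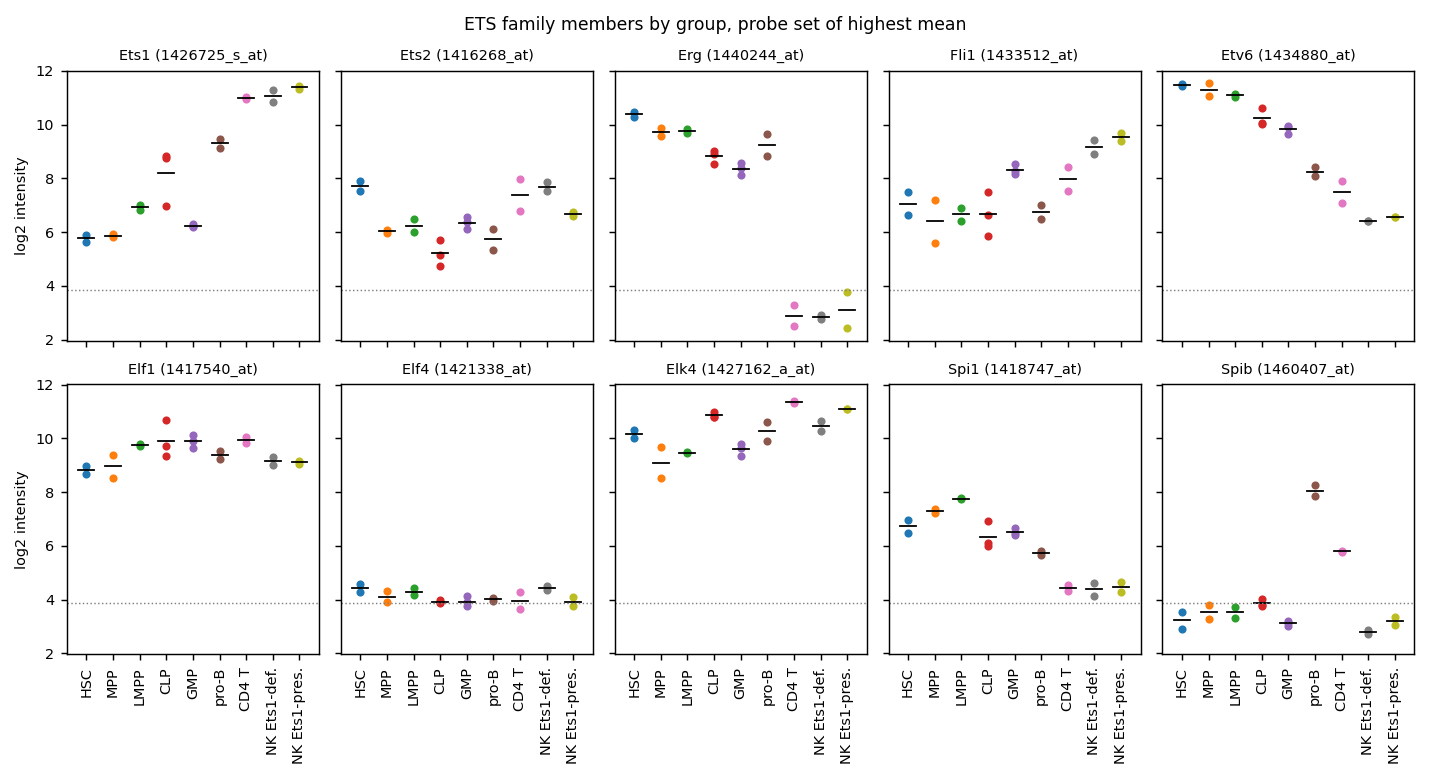
Log2 intensity (y axis) of the 10 members in the 9 groups (x axis), each gene on its probe set of highest mean; points are arrays, bars are group means and the dotted line marks 3.86, the median of all probe sets. Ets1 is highest in NK and CD4 T cells, Erg drops below the dotted line in the same 3 groups, Etv6 is highest in HSC, and Spib stands above the line in pro-B and CD4 T cells.

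Of the members that moved furthest between populations, Erg, Etv6 and Spib have start-site windows in the RefSeq promoter table (assembly GRCm38.p6), and they are shown so that the letters behind each gene can be read beside its levels. Each runs from 250 bases before to 50 bases after an annotated start, 5′ to 3′ on the gene's strand, and capitals mark the ETS core GGAA or its reverse complement TTCC.
Erg, chr16:95586544-95586843, minus strand: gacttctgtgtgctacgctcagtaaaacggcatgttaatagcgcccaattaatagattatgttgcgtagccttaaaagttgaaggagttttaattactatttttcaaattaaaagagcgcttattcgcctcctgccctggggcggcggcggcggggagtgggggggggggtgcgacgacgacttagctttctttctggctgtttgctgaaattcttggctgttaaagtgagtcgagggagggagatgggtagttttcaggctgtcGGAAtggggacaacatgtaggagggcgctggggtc
Etv6, chr6:134035450-134035749, plus strand: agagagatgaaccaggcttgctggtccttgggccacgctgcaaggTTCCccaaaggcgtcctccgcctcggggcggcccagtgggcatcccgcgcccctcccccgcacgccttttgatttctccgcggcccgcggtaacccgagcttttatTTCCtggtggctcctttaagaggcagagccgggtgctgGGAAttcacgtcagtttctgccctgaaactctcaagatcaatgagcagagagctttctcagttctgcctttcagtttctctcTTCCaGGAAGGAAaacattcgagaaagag
Spib, chr7:44532022-44532321, minus strand: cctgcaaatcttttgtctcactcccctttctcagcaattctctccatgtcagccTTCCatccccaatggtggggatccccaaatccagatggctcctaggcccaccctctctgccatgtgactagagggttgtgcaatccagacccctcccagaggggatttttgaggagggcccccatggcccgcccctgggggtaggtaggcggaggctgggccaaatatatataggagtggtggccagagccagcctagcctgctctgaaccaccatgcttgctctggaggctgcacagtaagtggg
In these windows the core occurs 1 time for Erg, 6 times for Etv6 and 1 time for Spib. Erg has 3 windows in the table, of which the farthest upstream is shown, and the other 2 hold the core 4 and 2 times. It is a common word: 96.0% of 32851 promoter windows of this length hold it on either strand, as do 13 of 13 windows of the 7 member genes in the table. Longer ETS words are rarer. CCGGAAGT, on either strand, is found in 3.89% of windows and GAGGAAGT in 3.2%, and among the 13 member windows each occurs in 1, the same one of the 3 windows of Elk4.
Elk4, chr1:132007370-132007669, plus strand: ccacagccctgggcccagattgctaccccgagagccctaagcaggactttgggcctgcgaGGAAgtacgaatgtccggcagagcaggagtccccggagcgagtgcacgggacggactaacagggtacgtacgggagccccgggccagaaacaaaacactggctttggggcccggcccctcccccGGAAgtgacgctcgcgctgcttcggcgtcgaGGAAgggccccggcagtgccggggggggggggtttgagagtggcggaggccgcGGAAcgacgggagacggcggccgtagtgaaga
These matches describe letters only, and a match to GAGGAAGT or CCGGAAGT always contains the core. By gene order in the same annotation Ets1 and Fli1 are neighbouring protein-coding genes on chromosome 9, and Erg and Ets2 are neighbours on chromosome 16.

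Ets1 was low in stem cells and high in lymphocytes. On probe set 1426725_s_at the arrays read 5.91 and 5.62 in HSC, 5.93 and 5.81 in MPP, 7.02 and 6.82 in LMPP, 8.74, 8.82 and 6.99 in CLP, 6.23, 6.32 and 6.18 in GMP, 9.14 and 9.46 in pro-B cells, 10.94 and 11.03 in CD4 T cells, 11.28 and 10.85 in Ets1-deficient NK cells and 11.34 and 11.45 in Ets1-present NK cells. HSC and MPP overlapped at the low end, CD4 T cells and Ets1-deficient NK cells overlapped at the high end, and CLP array 3 fell among the LMPP arrays while CLP arrays 1 and 2 lay above them. All 4 Ets1 probe sets put the NK groups and CD4 T cells highest, then pro-B cells, then CLP, with Pearson r between pairs of 0.92 to 0.98 over the 9 group means, a description only. They differed in the order below CLP, where the lowest group was HSC on 1426725_s_at, MPP on 1452163_at, GMP on 1422027_a_at and LMPP on 1422028_a_at. In CD4 T cells against HSC all 4 rose, by 5.22 (SE 0.42, adjusted p = 1.92e-08), 6.05 (SE 0.54, adjusted p = 7.2e-08), 3.42 (SE 0.31, adjusted p = 1.12e-07) and 3.59 log2 units (SE 0.29, adjusted p = 2.08e-08).

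Between MPP and LMPP 1 of the 4 Ets1 probe sets was called. Probe set 1452163_at read 6.56 and 6.43 in LMPP, against 3.1 and 3.63 in MPP, a rise of 3.13 log2 units (SE 0.54, adjusted p = 0.00475). It was the 1 member probe set called in that comparison, where 0.537% of all probe sets were called and 0.298% were higher. The call ended without MPP array 1, LMPP array 1 or LMPP array 2, with differences of 2.87 to 3.4 over the arrays left out and an adjusted p of at most 0.0897. On this probe set MPP lay under the overall median and had the lowest mean of the 9 groups, with a log2 difference from HSC of -1.48 (SE 0.54, adjusted p = 0.201). In LMPP against MPP the differences of the other 3 probe sets, none of them called, were 1.05 on 1426725_s_at (6.92 ± 0.14 in LMPP and 5.87 ± 0.08 in MPP, SD, n = 2 each), 0.24 on 1422027_a_at and -0.15 on 1422028_a_at.

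Against LMPP, GMP and CLP were each called on 1 Ets1 probe set, and not on the same one. On 1452163_at GMP read 5.14, 4.84 and 4.34, a log2 difference from LMPP of -1.73 (SE 0.49, adjusted p = 0.0211), and on 1426725_s_at CLP averaged 8.18 ± 1.03 (SD, n = 3), a rise of 1.27 (SE 0.38, adjusted p = 0.0358). Neither probe set called both: CLP differed from LMPP by 0.66 on 1452163_at (adjusted p = 0.431), and GMP by -0.67 on 1426725_s_at (adjusted p = 0.303). On 1422027_a_at and 1422028_a_at the differences from LMPP were -0.41 and 0.32 in GMP and 0.05 and 0.72 in CLP, none of them called. The GMP call was lost without either LMPP array or GMP array 2 or 3 (-1.91 to -1.51), and the CLP call without either LMPP array or CLP array 1 or 2 (0.95 to 1.86). The CLP and LMPP arrays overlapped on that probe set, and with CLP array 2 alone the rise was 1.9 (adjusted p = 0.000473). Pro-B cells stood above CLP on 3 probe sets, by 1.12 (SE 0.38, adjusted p = 0.0481), 1.61 (SE 0.49, adjusted p = 0.026) and 2.1 log2 units (SE 0.27, adjusted p = 1.92e-05). With CLP array 2 as the only CLP array the first 2 were 0.48 (adjusted p = 0.369) and 0.32 (adjusted p = 0.762), whereas the one on 1422028_a_at was 2.21 (adjusted p = 0.000515) and was called under every alternative. Leaving out either pro-B array or CLP array 3 also ended the first 2 calls, as did CLP array 1 for the second, with values of 0.52 to 1.43 and 0.97 to 2.26. Repeated quantile normalization ended both (0.75 and 1.29), as did a model term for replicate number (0.8 and 1.18). The first was also lost without the intensity trend, with array weights and under housekeeping centring (0.44, adjusted p = 0.235). CD4 T cells were in turn above pro-B cells on all 4 probe sets, by 0.89 to 2.29 log2 units, and 1422027_a_at among them held under every alternative. The other 3 lost their call under some alternatives: 1426725_s_at without pro-B array 1 or CD4 T array 2 (1.52 to 1.85), 1452163_at without pro-B array 2 or CD4 T array 1 (2.02 to 2.23), and 1422028_a_at without pro-B array 1 or either CD4 T array (0.45 to 1.34), with repeated quantile normalization (0.66, adjusted p = 0.163), with array weights (adjusted p = 0.0743) and under housekeeping centring (0.59, adjusted p = 0.478). Set directly against pro-B cells, GMP fell on all 4, with log2 differences of -1.2 to -4.0. The -1.2 of 1422027_a_at lost its call without pro-B array 1 (-0.74) and under housekeeping centring. The actin 3' excess was 6.44 to 6.68 in GMP arrays, 2.07 and 3.11 in pro-B arrays and 2.1 and 1.92 in LMPP arrays. Its part in the Ets1 differences of GMP was not tested.

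Ets1 is also the gene deleted in the NK comparison, so its own probe sets come first there. On 1422027_a_at the arrays read 6.53 and 7.22 in Ets1-deficient NK cells, against 8.34 and 8.51 in Ets1-present NK cells, a log2 difference of -1.55 (SE 0.31, adjusted p = 0.00859). On 1422028_a_at they read 8.46 and 8.46 in Ets1-deficient, against 9.11 and 9.67 in Ets1-present NK cells (difference -0.93, SE 0.29, adjusted p = 0.118), on 1452163_at 10.85 and 10.53 in Ets1-deficient, against 11.49 and 11.5 in Ets1-present cells (-0.81, SE 0.54, adjusted p = 0.753), and on 1426725_s_at 11.28 and 10.85 in Ets1-deficient, against 11.34 and 11.45 in Ets1-present cells (-0.33, SE 0.42, adjusted p = 0.98). The deficient arrays lay below the present arrays on all 4 probe sets. Each deficient array nevertheless read 6.53 or more on all 4, above the overall median of 3.86, and on 1426725_s_at the deficient arrays overlapped with those of CD4 T cells. Which part of the gene was deleted, and where these probe sets lie relative to it, was not analysed here, so the probe sets do not check the genotype labels.

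Of the 23 member probe sets 1 was called between the NK genotypes, where 2.5% of all probe sets were called, 0.997% higher and 1.51% lower, and 4 had an unadjusted p below 0.05. The call of 1422027_a_at ended when either Ets1-present array or Ets1-deficient array 1 was left out (differences -1.9 to -1.2 over the arrays left out, adjusted p up to 0.132) and under centring on housekeeping genes (-1.57, adjusted p = 0.086). A fit on the 4 NK arrays alone called 4 member probe sets, 1 higher and 3 lower, where 3.77% of all probe sets were called (1.66% higher and 2.12% lower). A fit with array weights called 4, 2 higher and 2 lower, where 7.12% of all were called (3.06% higher and 4.06% lower). The neutrophil genes named above were also lower in the deficient arrays, and their part in these differences was not tested. Nor was that of the larger actin 3' excess of Ets1-deficient array 2.

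Ets2, the closest relative of Ets1, ran the other way. Its probe set 1416268_at read 7.85 and 7.53 in Ets1-deficient NK cells, against 6.61 and 6.75 in Ets1-present NK cells (difference 1.01, SE 0.39, 95% interval 0.19 to 1.83, adjusted p = 0.265). Its probe set 1447685_x_at read 7.11 and 6.83 in Ets1-deficient NK cells, against 6.05 and 6.0 in Ets1-present NK cells (difference 0.95, SE 0.3, 95% interval 0.31 to 1.58, adjusted p = 0.129). On both the genotypes did not overlap, but neither difference passed the adjustment over all probe sets. With array weights the adjusted p was 0.0409 and 0.0146, and on the NK arrays alone 0.0479 for the first. On 1447685_x_at the Ets1-deficient NK cells had the highest mean of the 9 groups (6.97 ± 0.2), and on 1416268_at they overlapped with HSC, the group of highest mean. The third Ets2 probe set was dim in every group. Of the other 8 members 0 were called between the genotypes in limma, where 2.5% of all probe sets were called. An unadjusted p below 0.05 was found for 0 of them and for 4854 of all 45037 probe sets. Among the 16 probe sets of these 8 members the differences ran from -0.73 for Elf1 1439319_at to 0.5 for Elf4 1421338_at.

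**Figure D2:**
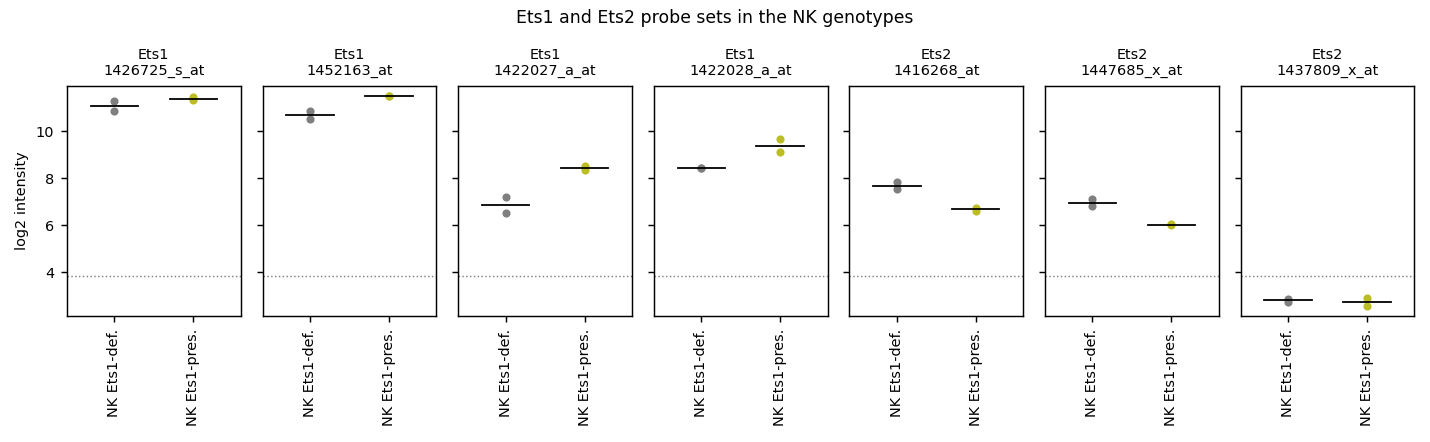
Log2 intensity (y axis) of the 4 Ets1 and 3 Ets2 probe sets on the 4 NK arrays, Ets1-deficient left and Ets1-present right in each panel; points are arrays, bars are means and the dotted line marks 3.86. Each Ets1 panel has the deficient arrays lower, 1416268_at and 1447685_x_at of Ets2 have them higher, and 1437809_x_at stays below the line.

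Outside NK cells the 2 Ets2 probe sets above the overall median differed in their highest groups, HSC and CD4 T cells on 1416268_at and GMP and CD4 T cells on 1447685_x_at (r 0.54 over the 9 group means). On 1416268_at the arrays read 7.52 and 7.9 in HSC, 6.07 and 5.98 in MPP, 6.49 and 5.99 in LMPP, 4.75, 5.16 and 5.71 in CLP, 6.58, 6.36 and 6.13 in GMP, 5.34 and 6.12 in pro-B cells and 7.98 and 6.78 in CD4 T cells. HSC stood clear of the progenitors, and GMP, LMPP, MPP, pro-B cells and CLP formed a run in which each overlapped with the next. On 1447685_x_at GMP averaged 5.87, CD4 T cells 5.72, CLP 5.6 and HSC 5.49. On 1416268_at MPP fell below HSC by 1.68 on the log2 scale (SE 0.39, adjusted p = 0.0267), and CD4 T cells rose above pro-B cells by 1.65 (SE 0.39, adjusted p = 0.00516). The first call was lost when any 1 of the 4 arrays was left out and when quantile normalization was repeated (-1.88 to -1.49 over the arrays left out, adjusted p up to 0.19), and the second without pro-B array 1 or CD4 T array 1, with differences of 1.05 to 2.25 over the arrays left out. Between MPP and HSC 2 of 23 member probe sets were called, the Ets2 fall and a rise of Elf1 1439319_at, where 2.03% of all probe sets were called, 0.75% higher and 1.28% lower. The Elf1 rise, of 2.03 (SE 0.46, adjusted p = 0.0227), lost its call without HSC array 1 or either MPP array (1.56 to 2.5) and with array weights.

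Erg divided the populations into a high and a low set. Its probe set 1440244_at read 10.3 and 10.46 in HSC, 9.57 and 9.87 in MPP, 9.83 and 9.7 in LMPP, 8.53, 9.03 and 8.92 in CLP, 8.58, 8.38 and 8.12 in GMP and 8.83 and 9.66 in pro-B cells. It then read 2.5 and 3.29 in CD4 T cells, 2.93 and 2.76 in Ets1-deficient NK cells and 2.42 and 3.77 in Ets1-present NK cells, all under the overall median. LMPP, MPP, pro-B cells, CLP and GMP formed an overlapping run, and the mean of GMP, the lowest of these 6 groups, lay 5.26 log2 units above that of the next group. CD4 T cells were lower than pro-B cells by 81.4-fold (log2 difference -6.35, SE 0.39, adjusted p = 5.6e-10) and lower than HSC by 179-fold (-7.48, SE 0.39, adjusted p = 5.15e-11). Because the lymphocyte values are at the dim end of the array, these folds rest on values near background. Both calls held in every alternative run. The second Erg probe set, 1425370_a_at, was dimmer and spanned 1.68 log2 units between its lowest and highest group mean. It had the same 6 groups above the same 3 (r 0.9), but was highest in CLP (5.03), with HSC at 4.65.

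Etv6 declined in more even steps. On 1434880_at the arrays read 11.44 and 11.52 in HSC, 11.05 and 11.55 in MPP, 11.04 and 11.13 in LMPP, 10.06, 10.04 and 10.63 in CLP, 9.96, 9.92 and 9.66 in GMP, 8.07 and 8.44 in pro-B cells, 7.08 and 7.91 in CD4 T cells, 6.41 and 6.4 in Ets1-deficient NK cells and 6.56 and 6.55 in Ets1-present NK cells. HSC, MPP and LMPP overlapped with their neighbours in this order, and from LMPP downwards each neighbouring pair of groups was separate. Pro-B cells fell below CLP by 1.99 on the log2 scale (SE 0.27, adjusted p = 4.95e-05), and the difference was -1.79 with CLP array 2 alone (adjusted p = 0.00145). Ets1-present NK cells were below CD4 T cells by a log2 difference of -0.94 (SE 0.3, adjusted p = 0.0413), a call lost without CD4 T array 2 or either NK array and under housekeeping centring (-0.59, adjusted p = 0.334). In CD4 T cells the level was 15.8-fold below that of HSC (-3.98, SE 0.3, adjusted p = 7.85e-09). The dimmer probe set 1423401_at also had its lowest means in pro-B, CD4 T and NK cells (r 0.95), but was highest in MPP (5.69), with HSC at 5.04.

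Fli1, the closest relative of Erg, was highest in NK cells, where Erg was near background. On 1422024_at the NK arrays read 8.41 and 7.99 in Ets1-deficient and 8.34 and 8.69 in Ets1-present cells, and the CD4 T arrays 6.98 and 7.37, which the progenitor values of 7.1 to 7.93 in HSC, MPP, LMPP and CLP overlapped. Ets1-present NK cells were above CD4 T cells on both probe sets, by 1.55 (SE 0.51, adjusted p = 0.0458) and 1.34 log2 units (SE 0.35, adjusted p = 0.0122). The first call was lost without CD4 T array 2, without either NK array and without the intensity trend, and the second without CD4 T array 1 or NK array 2. Over the arrays left out the first lay between 1.1 and 2.0 and the second between 1.15 and 1.54.

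In GMP the 2 Fli1 probe sets disagreed. On 1433512_at GMP read 8.52, 8.26 and 8.16, against 6.42 and 6.91 in LMPP, a rise of 1.64 log2 units (SE 0.46, adjusted p = 0.0199), and on 1422024_at GMP read 5.94, 6.22 and 6.12, against 7.93 and 7.28 in LMPP, a log2 difference of -1.51 (SE 0.32, adjusted p = 0.0026). The probe sets of Fli1 agreed weakly over the 9 group means (r 0.38), and those of Elf1 did too (r 0.34). GMP also had the largest excess of actin 3' over 5' signal, and its part in the opposed Fli1 values was not tested. No direction is therefore given for Fli1 in GMP. The rise was lost without either LMPP array or GMP array 1 (1.4 to 1.89) and the fall without LMPP array 1 (-1.84 to -1.19 over the arrays left out).

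**Figure D3:**
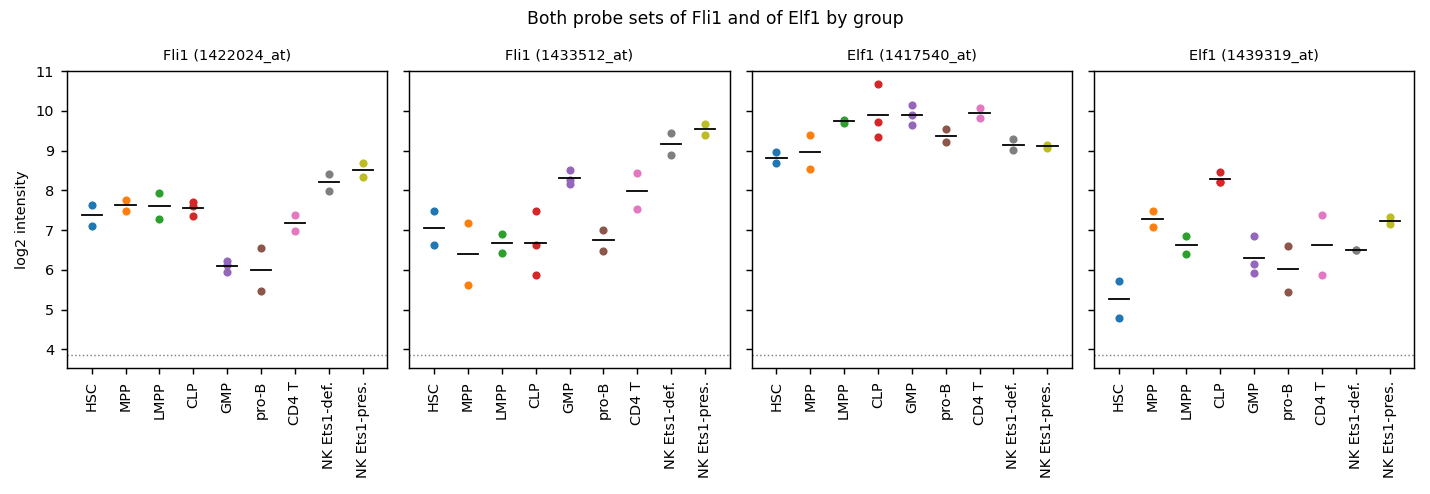
Log2 intensity (y axis) of both probe sets of Fli1 and of Elf1 in the 9 groups (x axis); points are arrays, bars are group means and the dotted line marks 3.86. Fli1 in GMP is high on 1433512_at and low on 1422024_at, and Elf1 varies less on 1417540_at than on 1439319_at, where its highest values are in CLP.

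Spi1, which encodes PU.1, peaked in LMPP. The arrays of 1418747_at read 6.98 and 6.48 in HSC, 7.37 and 7.22 in MPP, 7.79 and 7.73 in LMPP, 6.92, 6.09 and 5.99 in CLP, 6.42, 6.67 and 6.48 in GMP, 5.82 and 5.66 in pro-B cells, 4.34 and 4.53 in CD4 T cells, 4.14 and 4.63 in Ets1-deficient NK cells and 4.65 and 4.28 in Ets1-present NK cells. LMPP stood above every other group, HSC, GMP and CLP formed an overlapping run, and the 3 lymphocyte groups overlapped at the low end. Both branches out of LMPP fell, GMP by 1.24 (SE 0.29, adjusted p = 0.00568) and CLP by 1.43 on the log2 scale (SE 0.29, adjusted p = 0.00309, and -1.67 with CLP array 2 alone, adjusted p = 0.00461). Centring on housekeeping genes left -0.74 in GMP (adjusted p = 0.233) and -0.31 in CLP (adjusted p = 0.471), neither of them called, and the GMP call was also lost without LMPP array 1 (-1.31 to -1.19 over the arrays left out). The actin 3' excess was 6.44 to 6.68 in GMP arrays and 2.1 and 1.92 in LMPP arrays. Its part in the Spi1 difference, which rests on 1 probe set, was not tested. GMP and pro-B cells differed by 0.78 on the log2 scale (SE 0.29, 95% interval 0.18 to 1.39, adjusted p = 0.0953). CD4 T cells were below pro-B cells by a log2 difference of -1.31 (SE 0.32, adjusted p = 0.00651), which was lost without CD4 T array 1 (adjusted p = 0.0564), and below HSC by -2.29 (SE 0.32, adjusted p = 2.35e-05).

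Spib had the narrowest pattern. Its single probe set, 1460407_at, read 7.85 and 8.25 in pro-B cells and 5.79 and 5.82 in CD4 T cells, and between 2.71 and 4.01 on the other 16 arrays. Pro-B cells rose 18.2-fold above CLP (log2 difference 4.19, SE 0.24, adjusted p = 1.05e-09, and 4.04 with CLP array 2 alone). CD4 T cells were 4.73-fold below pro-B cells (-2.24, SE 0.27, adjusted p = 3.61e-06) and above HSC (2.57, SE 0.27, adjusted p = 5.58e-07). Ets1-present NK cells were below CD4 T cells by a log2 difference of -2.59 (SE 0.27, adjusted p = 7.52e-07), and GMP were below pro-B cells by -4.93 (SE 0.24, adjusted p = 2.77e-11). These 5 calls held in every alternative run. The HSC, GMP and Ets1-present NK means of 3.23, 3.12 and 3.22 lay under the overall median, so the size of the differences from them rests on values at the dim end. The CLP values of 3.77 to 4.01 lay around the overall median of 3.86.

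Genes known from B cells, dendritic cells or myeloid cells were read beside Spib in CD4 T cells. Over the 9 group means the 3 genes of 12672 most like Spib were Cd22 (r 0.993), a B cell receptor inhibitor, Rragd (r 0.985), a GTPase of nutrient signalling, and Jchain (r 0.974), which joins antibody units. The CD4 T arrays read 5.95 and 6.93 for Cd22 and 7.56 and 7.48 for Jchain. Both were picked for likeness to Spib over these same groups, so raised CD4 T values follow from the choice. Of the B lineage genes Cd79a read 4.55 and 4.37 there, Ebf1 2.76 and 2.75 and Pax5 3.18 and 3.29, the last 2 under the overall median. Of the dendritic markers H2-Aa, an MHC class II chain, read 11.09 and 10.63 in CD4 T cells, the highest of the 9 groups. The other dendritic markers were not highest there. Siglech read 5.54 and 4.27, with its highest mean in CLP (4.74 to 5.49). Itgax read 4.64 and 5.06, with its highest mean in Ets1-deficient NK cells (8.82 and 9.24). Csf1r, a myeloid receptor, read 8.23 and 8.12 in CD4 T cells and was highest in GMP (10.77 to 10.86). Cd3d, at 11.06 and 11.2, and Cd4, at 9.06 and 9.53, were highest in the same arrays. Fewer Spib-positive cells and less Spib RNA per cell cannot be told apart in sorted bulk samples, and the part of other cell types in the CD4 T signal was not tested.

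**Figure D4:**
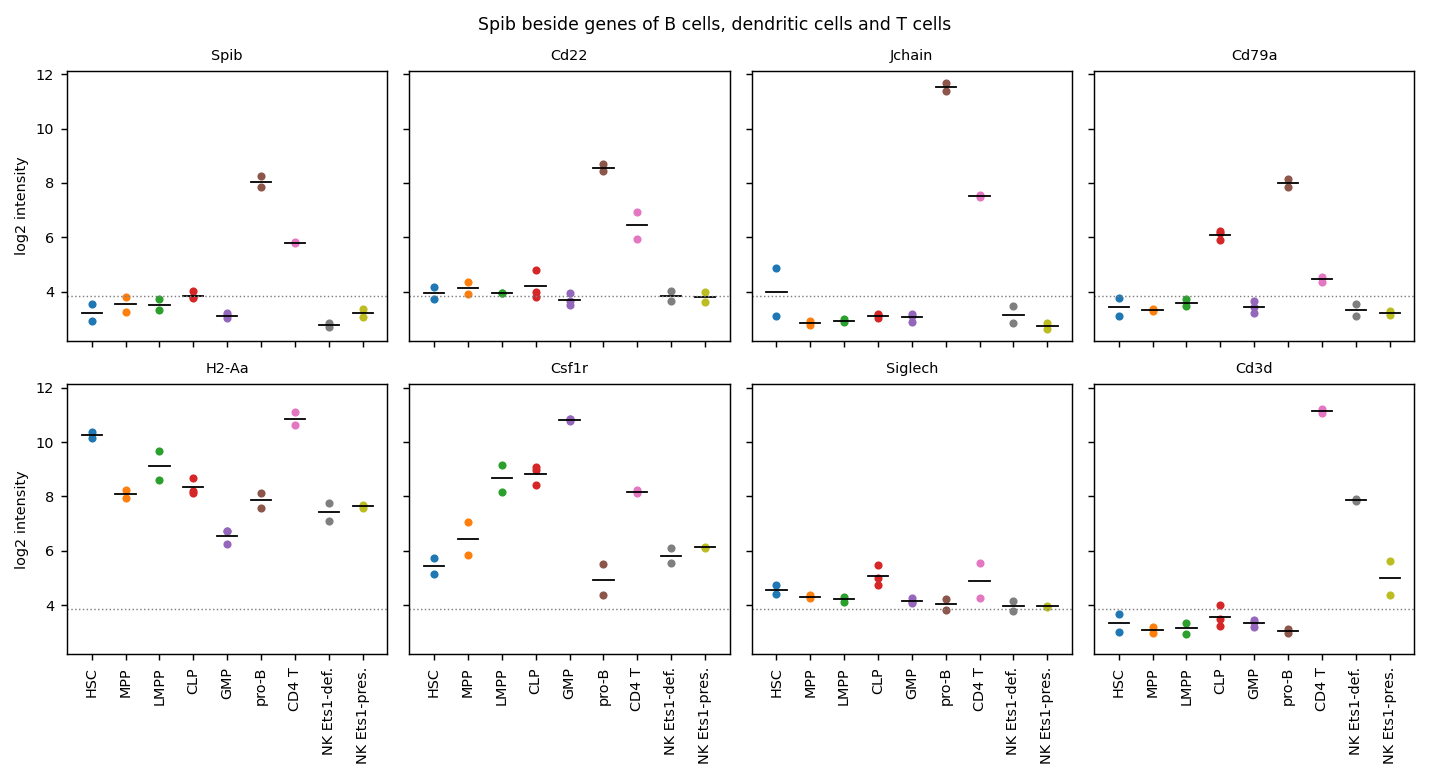
Log2 intensity (y axis) of Spib and 7 genes of B cells, dendritic or myeloid cells and T cells in the 9 groups (x axis); points are arrays, bars are group means and the dotted line marks 3.86. Cd22 and Jchain, picked for likeness to Spib, are raised with it in pro-B and CD4 T cells, and Cd79a is raised in CLP and pro-B cells. H2-Aa and Cd3d are highest in CD4 T cells, Csf1r is highest in GMP, and Siglech has its highest mean in CLP.

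For Elf1 and Elk4 the spread between groups depended on the probe set, and Elf4 varied little. Elf1, an activator in lymphoid cells, held group means of 8.82 to 9.94 on 1417540_at. On 1439319_at it read 8.21, 8.45 and 8.22 in CLP, above every array of the other groups, and was higher than in LMPP by 1.67 (SE 0.42, adjusted p = 0.0122), a call lost with CLP array 2 alone (1.83, adjusted p = 0.0859) and without either LMPP array (1.45 to 1.89). Pro-B cells were below CLP by a log2 difference of -2.28 (SE 0.42, adjusted p = 0.000762, and -2.44 with CLP array 2 alone). In CD4 T cells against HSC limma called a rise of Elf1 on 1417540_at (1.11, adjusted p = 0.0378) and on 1439319_at (1.37, adjusted p = 0.0452). The first call was lost without either HSC array or either CD4 T array. The second was lost without HSC array 1 or CD4 T array 1, without the intensity trend, with repeated quantile normalization and with array weights. Elk4 1427162_a_at read 11.39 and 11.32 in CD4 T cells and 10.79, 10.8 and 10.97 in CLP, which rose above LMPP by 1.39 (SE 0.29, adjusted p = 0.00368, and 0.051 with CLP array 2 alone). The other 3 Elk4 probe sets spanned 0.53 to 0.69 log2 units and were not called over the 9 groups. Elf4 stayed near the overall median, with group means of 3.92 to 4.43 on 1421338_at and 3.38 to 4.46 on 1421337_at. Probe set 1421337_at, called over the 9 groups (adjusted p = 0.0325), read 4.34 and 4.57 in Ets1-deficient and 3.95 and 4.51 in Ets1-present NK cells, its highest groups.

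Counted by comparison, member calls were most frequent in CD4 T cells against HSC and in CD4 T cells against pro-B cells, of the 10 comparisons made. The counts are of probe sets, and a gene with several can be counted more than once. Between CD4 T cells and HSC 8 member probe sets were higher and 5 lower of 23, from 7 genes. Of all probe sets 18.1% were called there (9.49% higher and 8.6% lower), and the median member difference was 0.23 against -0.07 over all probe sets. CD4 T cells against pro-B cells had 7 higher and 3 lower, from 7 genes (16.1% of all probe sets, 9.83% higher and 6.23% lower). GMP against pro-B cells had 3 higher and 5 lower, from 4 genes (11.8%, 7.04% higher and 4.74% lower). For pro-B cells against CLP 4 were higher and 3 lower, from 5 genes (19.5%, 10.8% higher and 8.68% lower). In GMP against LMPP 1 was higher and 6 lower, from 5 genes (14.8%, 8.26% higher and 6.57% lower). Among the 6 lower were both Erg probe sets, by -1.41 (SE 0.36) and -0.95 (SE 0.25), and Etv6, by -1.24 (SE 0.27). The Erg calls were lost without either LMPP array (-1.51 to -1.29 and -1.03 to -0.85), the second also without GMP array 2, and that of Etv6 without LMPP array 2 (-1.29 to -1.14). All 3 were lost under housekeeping centring, and the part of the larger actin 3' excess of GMP arrays in them was not tested. Ets1-present NK cells against CD4 T cells had 4 higher and 2 lower, from 4 genes (14.7%, 8.26% higher and 6.48% lower). CLP against LMPP had 3 higher and 1 lower, also from 4 genes (12.8%, 4.35% higher and 8.4% lower). These comparisons share groups, so their counts are not independent. The splits depended on scaling. Under centring on 5 housekeeping genes, which gave a median of all probe sets of 1.18 in CLP against LMPP, -0.77 in pro-B cells against CLP and 0.46 in GMP against LMPP, they became 17 higher and 0 lower, 3 and 10, and 2 and 2, while CD4 T against pro-B cells had 4 and 4 (median shift -0.34), Ets1-present NK against CD4 T cells 4 and 1 (0.35) and CD4 T cells against HSC 8 and 3 (0.03). LMPP against MPP shifted by -0.15 and MPP against HSC by 0.09. With quantile normalization repeated, pro-B cells against CLP had 3 higher and 5 lower, CD4 T against pro-B cells 5 and 4, GMP against pro-B cells 2 and 6, and MPP against HSC 1 and 0. The shares of all probe sets called under these scalings are not given here, so these counts are not read as particular to the members.

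**Figure D5:**
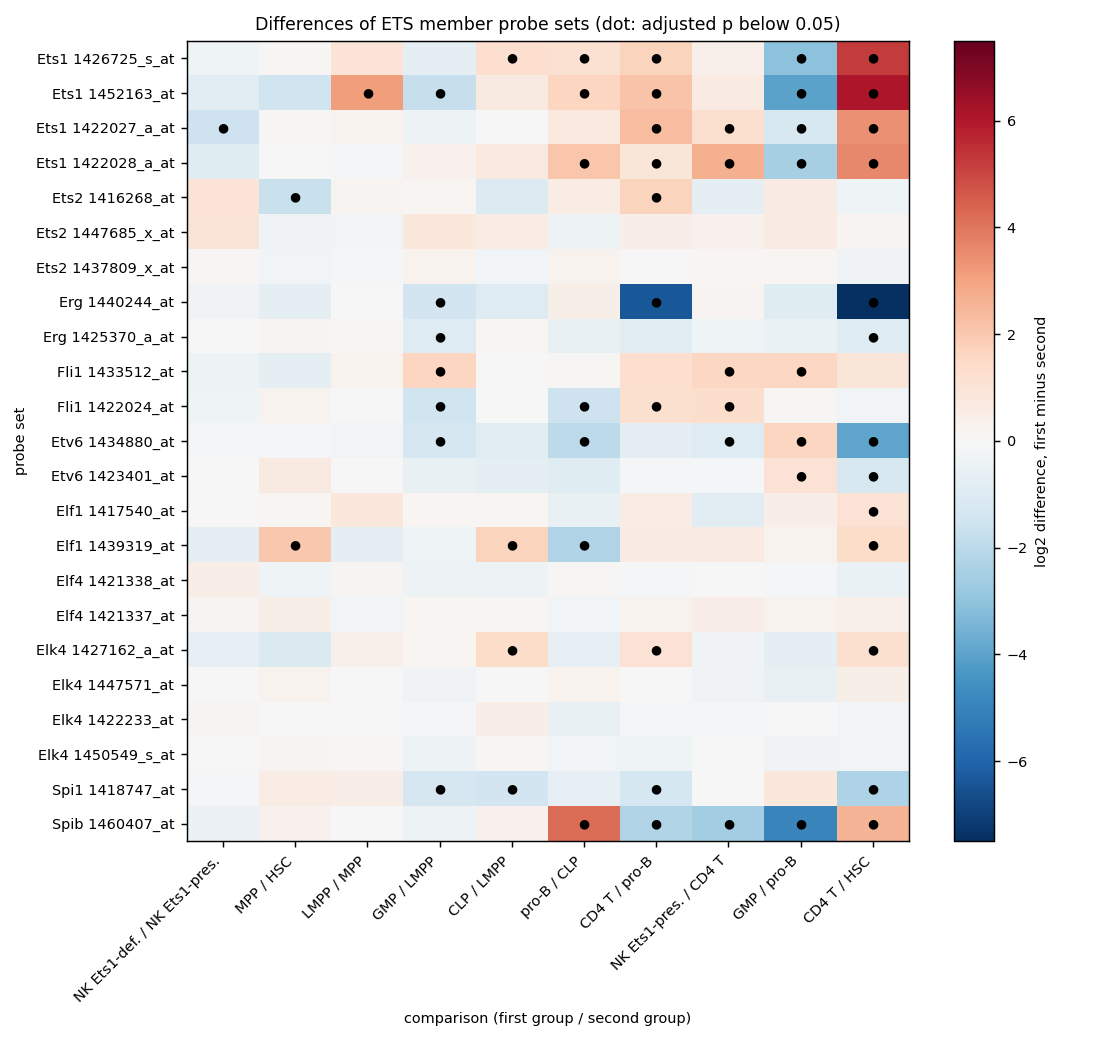
Log2 difference, first minus second group (colour, red higher in the first group and blue lower), of the 23 member probe sets (rows) in 10 comparisons (columns); a dot marks an adjusted p below 0.05. Ets1 rows are red and Erg 1440244_at and Etv6 1434880_at blue in CD4 T cells over HSC, and the Spib row changes colour between pro-B cells over CLP and CD4 T cells over pro-B cells.

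Of the 17 other ETS family genes listed, 14 had a probe set of their own and the rest were not analysed here. Over the 9 groups 6 of the 14 changed, where 52.0% of all probe sets were called by that test, and 14 genes are too few to tell these shares apart. Below the overall median in every group lay 3 (Elf5, Ehf and Spic). Elk3, a repressor of the same subfamily as Elk4, was lower in pro-B cells than in CLP by a log2 difference of -1.82 (SE 0.38, adjusted p = 0.00216) and higher in Ets1-present NK cells (9.5) than in CD4 T cells (7.25) by 2.25 (SE 0.42, adjusted p = 0.000709). It was also higher in GMP than in pro-B cells by 1.39 (SE 0.38, adjusted p = 0.0195). Etv3 rose in CD4 T cells over pro-B cells by 1.65 (SE 0.46, adjusted p = 0.0178) and Elf2 in CD4 T cells over HSC by 1.7 (SE 0.46, adjusted p = 0.0134). Between the NK genotypes 0 of the 14 were called in limma, where 2.5% of all probe sets were called. An unadjusted p below 0.05 was found for 0 of the 14 and for 4854 of all 45037 probe sets. Here too 14 genes are too few to tell these shares apart.

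Genes known as targets or partners were counted beside the members, without a test of the lists. Of 12 myeloid genes linked to PU.1, 10 were higher in GMP than in pro-B cells, where 7.04% of all probe sets were higher. The median difference was 3.12 over the list and -0.02 over all probe sets. The 10 included Mpo, the myeloperoxidase of granules, by 9.81 (SE 0.37, adjusted p = 7.38e-13) and Csf1r by 5.88 (SE 0.4, adjusted p = 2.16e-09). Against LMPP 6 of 12 rose in GMP, led by Fcgr3, an Fc receptor, with 5.74 (SE 0.29, adjusted p = 8.77e-11). Spi1 itself was lower in GMP than in LMPP, on 1 probe set. That call was lost under housekeeping centring (-0.74) and without LMPP array 1. Of all probe sets 8.26% rose in that comparison. In CD4 T cells against HSC 7 of the 12 fell and 1, Csf1r, rose by 2.74 (SE 0.43, adjusted p = 0.000108), where 8.6% of all probe sets fell and 9.49% rose. Between the NK genotypes, where 1.51% of all probe sets were lower, 3 of the 12 fell. These were Mpo by 3.59 (SE 0.41, adjusted p = 2.2e-05), Elane by 1.33 (SE 0.34, adjusted p = 0.0437) and Fcgr3 by 1.22 on the log2 scale (SE 0.31, adjusted p = 0.0421), beside the neutrophil genes that were lower in the same arrays. Leaving out any 1 NK array left 1 fall on this list called, as did housekeeping centring.

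Of 9 stem cell and megakaryocyte genes linked to Erg and Fli1, 7 were measured. All 7 fell in CD4 T cells against HSC (median -4.44, against -0.07 over all probe sets, of which 8.6% were called lower). They included Meis1, a stem cell homeobox factor, with a log2 difference of -8.22 (SE 0.51, adjusted p = 5.38e-10), and Procr, an endothelial protein C receptor, with -7.05 (SE 0.29, adjusted p = 2.28e-12). Both averaged under the overall median in CD4 T cells (3.0 and 3.3), so the size of these differences rests on values at the dim end. In LMPP against MPP 5 of the 7 fell, where 0.24% of all probe sets were lower. Among the 5 were the platelet chemokine Pf4 with -4.51 (SE 0.53, adjusted p = 7.01e-05) and the integrin Itga2b with -4.2 (SE 0.37, adjusted p = 3.58e-06), while Erg 1440244_at differed by 0.05 (95% interval -0.78 to 0.87). Without MPP array 2 or either LMPP array 3 falls on this list were called. Of 12 lymphoid genes with known ETS sites, 10 were measured. In CD4 T cells against pro-B cells 5 rose and 2 fell, where 9.83% of all probe sets were higher and 6.23% lower. The 5 included Id2, an inhibitor of E proteins, by 6.1 (SE 0.46, adjusted p = 9.1e-09) and Gata3 by 3.33 (SE 0.29, adjusted p = 5.24e-08). The 2 that fell were B lineage genes, Blk with -4.6 (SE 0.3, adjusted p = 1.3e-09) and Cd79a with -3.53 (SE 0.27, adjusted p = 1.19e-08). Between the NK genotypes 1 of the 10 was called, Il7r, an interleukin receptor chain, with -2.59 (SE 0.44, adjusted p = 0.00175), where 2.5% of all probe sets were called.

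Partner factors moved in both directions. Of 14 listed, all measured, 4 were higher and 5 lower in CD4 T cells than in HSC, where 9.49% of all probe sets were higher and 8.6% lower. The fallers included Lmo2 with -7.12 (SE 0.41, adjusted p = 1.55e-10) and Tal1 with -5.86 (SE 0.33, adjusted p = 1.06e-10), which form a stem cell complex with each other. Irf4, a partner of PU.1 and SPI-B, was higher in pro-B cells than in CLP by 3.56 (SE 0.33, adjusted p = 5.18e-07), the step at which Spib rose. Irf8, another such partner, rose in LMPP over MPP by 4.2 (SE 0.38, adjusted p = 3.64e-06). Between the NK genotypes 0 of the 14 partners were called in limma, where 2.5% of all probe sets were called, and 2 had an unadjusted p below 0.05. With array weights or with the NK arrays alone 2 were called, where 7.12% and 3.77% of all probe sets were called.

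Genes of likest pattern were found for 3 more members, again as descriptions over 9 group means and 12672 genes. Ets1 ran with Stn1 (r 0.972), a telomere protein, Ipcef1 and Prelid1 (both 0.967). Erg ran with Lyl1 (r 0.992), a helix-loop-helix factor of stem cells, Bcl11a (0.977), a zinc finger factor, and Anks1 (0.972). Lyl1 averaged 4.88 in CD4 T cells and 9.91 in HSC. Spi1 ran with Nek6 (r 0.973), a mitotic kinase, Eif4a1 (0.972), a translation helicase, and Tnfrsf21 (0.97), a death receptor.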

How the data were processed

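Affymetrix arrays were hybridised with RNA of sorted cells, amplified in 2 rounds and labelled with biotin, per the labels' protocols. The deposited values are linear intensities, made by the authors with RMA per the submitters' processing notes (version not given in the sources used here). RMA subtracts background, makes the arrays' distributions alike and pools the probes of a set, so array medians are close (3.78 to 4.04 on the log2 scale). The planned test assumed log2 values, so log2 was taken first. Of 45101 probe sets 64 controls were left out. Gene names came from the platform table: 34945 probe sets had 1 symbol, 932 several and 9160 none here. Probe sets of the members were taken by symbol, and none of those with several symbols holds a member.

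Group means were compared in limma 3.58.1 (R 4.3.3) with lmFit and eBayes (trend on mean intensity) in 1 model over 20 arrays and 9 groups (11 residual degrees of freedom), without a filter on dim probe sets. Errors are standard errors (SE) of that model or standard deviations (SD) of arrays. The method was tested on 5 simulated data sets for the NK genotypes, with 200 changed probe sets each. It called 28.4% of changes of 1 log2 unit and 84.4% of changes of 2, and 4.56% of calls were false. An uncalled difference of about 1 log2 unit is therefore no sign of equal levels. The named genes were the members, the other ETS genes, up to 4 called genes per list and comparison, and the 3 genes most like Ets1, Erg, Spi1 and Spib over group means, each by its probe set of highest mean. Cell type markers and the genes shown beside Spib were added for checks. Alternatives were a filter on dim probe sets, no trend, repeated quantile normalization, a replicate block, array weights, housekeeping centring, the NK arrays alone, CLP array 2 alone and leaving out each array. Centring of comparisons other than the NK genotypes was chosen after seeing the data. Members, lists and comparisons were chosen with earlier results of these data known. The number of arrays limits the precision.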

Additional observations from a re-analysis of the deposited data

How the results depend on the processing

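Of 59 called member differences 22 were called under every alternative, 37 lost the call under at least 1 and 0 reversed. The dim Ets2 probe set 1437809_x_at, not called between the NK genotypes (0.08), ranged from -0.09 (without Ets1-present NK array 2) to 0.24 (without array 1) over the arrays left out. Of the 37, 15 lost it only when an array was left out, which leaves a group of 2 with a lone array assumed to vary like the other groups. Of 157 called differences of list genes 48 lost a call and 0 reversed. The replicate numbers are shared by groups, and whether same-numbered arrays were handled together was not tested. Deviations of same-numbered arrays correlated between -0.107 (CD4 T cells against HSC) and 0.329 (MPP against HSC). The next highest values were 0.144 (LMPP against MPP) and 0.137 (CD4 T against pro-B cells). With the number as a replicate block the count of member probe sets was 1 for the NK genotypes, 2 for MPP against HSC, 1 for LMPP against MPP, 8 for GMP against LMPP, 5 for CLP against LMPP, 5 for pro-B cells against CLP, 10 for CD4 T against pro-B cells, 6 for Ets1-present NK against CD4 T cells, 7 for GMP against pro-B cells, 13 for CD4 T cells against HSC and 18 over the 9 groups, and 3 of the 59 calls were lost. Housekeeping centring gave 0 for the NK genotypes, 4 for GMP against LMPP, 17 for CLP against LMPP and 13 for pro-B cells against CLP. The share of all probe sets called under that centring is not given here, so these counts are not read as particular to the members. Array weights gave 4 for the NK genotypes and 1 for MPP against HSC, the NK arrays alone gave 4, and repeated quantile normalization gave 1 for MPP against HSC. The cause was not tested. Shares of all probe sets are likewise not given for the replicate block, repeated quantile normalization or array weights in MPP against HSC. The same holds for the arrays left out, counted next. None of these counts is read as particular to the members. Leaving out 1 array gave 0 to 1 for the NK genotypes, 0 to 1 for MPP against HSC, 0 to 1 for LMPP against MPP, 1 to 6 for GMP against LMPP, 2 to 7 for CLP against LMPP, 5 to 7 for pro-B cells against CLP, 5 to 8 for CD4 T against pro-B cells, 2 to 4 for Ets1-present NK against CD4 T cells, 6 in each case for GMP against pro-B cells and 8 to 11 for CD4 T cells against HSC. When a gene's level was averaged over its probe sets, 5 of 10 genes kept the same group of highest level (Ets1, Erg, Fli1, Spi1 and Spib), while Ets2 and Elf4 moved to Ets1-deficient NK cells, Etv6 to MPP, and Elf1 and Elk4 to CLP. Probe sets near the overall median of 3.86 (Elf4, Spib outside pro-B and CD4 T cells, Erg in lymphocytes) are limited by signal over background.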
